A study of Mus musculus with 48 samples.

Results

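The comparison described here is the step from day 3 to day 6 of differentiation in wild-type (WT) preadipocytes, chosen by genotype, cell type and day from the sample labels: 3 libraries of day 3 and 3 of day 6, which are 6 of the 48 libraries of the series. The preadipocytes, the committed precursors of fat cells, came from the inguinal white adipose tissue of C57BL/6 mice of wild type genotype, 8 to 12 weeks old by the methods of the study, and carried no engineered allele. They were differentiated in a medium with 0.5 µg/ml insulin, 5 µM dexamethasone, 0.5 mM IBMX, 1 nM T3 and 1 µM rosiglitazone for 4 days and then held in a maintenance medium with insulin and T3 alone for 4 days. By that schedule the day 3 cells stood in the full cocktail and the day 6 cells in the maintenance medium, so that 3 days of differentiation and the withdrawal of dexamethasone, IBMX and rosiglitazone cannot be told apart. The schedule ends before the last labelled day, day 9, and the medium of a library is read from the schedule and not from a label of its own. The labels call both groups differentiating preadipocytes. The series holds 16 groups of 3 libraries, with the same days in preadipocytes of Hmgn1-/- and Hmgn2-/- mice (DKO, which lack the nucleosome-binding proteins HMGN1 and HMGN2) and a second system, mouse embryonic fibroblasts (MEFs). The study calls the 3 libraries of a group biological replicates, while the labels do not say whether they came from separate mice or cultures. The p-values measure the spread between these libraries.

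Fat cell differentiation runs through a relay of transcription factors. The early C/EBPβ and C/EBPδ, raised by glucocorticoid and cyclic AMP, hand over to PPARγ and C/EBPα, which then switch on the genes for taking up, making and storing fat. The cocktail addresses this relay directly: dexamethasone activates the glucocorticoid receptor, IBMX blocks the breakdown of cyclic AMP, rosiglitazone is a ligand of PPARγ, insulin drives glucose uptake and lipid synthesis, and T3 is the active thyroid hormone. Cells of the inguinal depot can also become brown-like (beige), with many mitochondria and UCP1, the inner-membrane protein that turns the proton gradient into heat.

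The 6 libraries held 20746763 to 27594598 expected counts at day 3 and 24974448 to 27052150 at day 6. Within each day the libraries differed from each other by more than counting noise, and the first principal component, with 88.4% of the variance, separated the days. Counts of the mitochondrial genome were 2.73% to 3.41% of a library at day 3 and 6.8% to 7.41% at day 6. Markers of other cells that adipose tissue can carry were measured too. The 9 markers of macrophages and leukocytes summed to 69.1, 246 and 87.6 CPM (counts scaled to a common library size) in the day 3 libraries and to 6772, 10586 and 11044 CPM in the day 6 libraries, and all 9 rose. Lyz2, the macrophage lysozyme, went from 47.7, 184 and 53.5 CPM to 4413, 7120 and 7479 CPM. Adgre1, the antigen F4/80, went from 0.501, 3.0 and 1.27 CPM to 108, 160 and 160 CPM, a log2 change of 6.5 that was 7.27 without replicate 2 of day 3. Ptprc, the pan-leukocyte CD45, went from 0.0912, 0.941 and 0.274 CPM to 26.3, 38.1 and 36.3 CPM. None of the 9 stands in any other gene list used here, none of them was at 0 in a day 6 library, and their part in the results below was not tested. The other lists were low: lymphocyte markers summed to 0.0448 to 0.137 CPM at day 3 and 0.0395 to 0.0839 CPM at day 6, red blood cell markers to 0.171 to 0.274 CPM and 0.0 to 0.119 CPM, and epithelial markers to 0.855 to 1.46 CPM and 0.0395 to 0.119 CPM. Endothelial markers summed to 8.29 to 22.0 CPM at day 3 and 5.12 to 11.1 CPM at day 6, Schwann cell markers to 35.7 to 88.4 CPM and 27.6 to 30.2 CPM, pericyte markers to 44.4 to 87.8 CPM and 13.9 to 21.2 CPM, mesothelial markers to 7.48 to 47.2 CPM and 1.74 to 3.02 CPM, and skeletal muscle markers to 4.31 to 8.98 CPM and 0.237 to 0.477 CPM. In bulk libraries, fewer cells of a type and less of its RNA per cell cannot be told apart.

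Between day 3 and day 6 a large share of the measured transcriptome moved, in both directions. Of 15368 genes with enough counts to be tested, 7060 (45.9%) passed the call used here, a Benjamini-Hochberg adjusted p below 0.05 in edgeR's quasi-likelihood test together with a change of at least 1.5-fold. Of these, 3367 rose (21.9% of the genes tested) and 3693 fell (24.0%), and 9514 genes passed the adjusted p alone. The median log2 change of all tested genes was -0.01. With libraries scaled by their totals only, that median moved to -0.16, with 2818 genes called higher and 4332 called lower. The 3 libraries of one day lay entirely above or below those of the other for 10793 genes, 70.2% of those tested, with day 6 higher in 35.2% and lower in 35.1%. An exact permutation test of 3 against 3 libraries cannot give a p below 0.1, so no single gene is tested that way. The counts of the gene lists below are to be read against 21.9% and 24.0%.

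**Figure D1:**
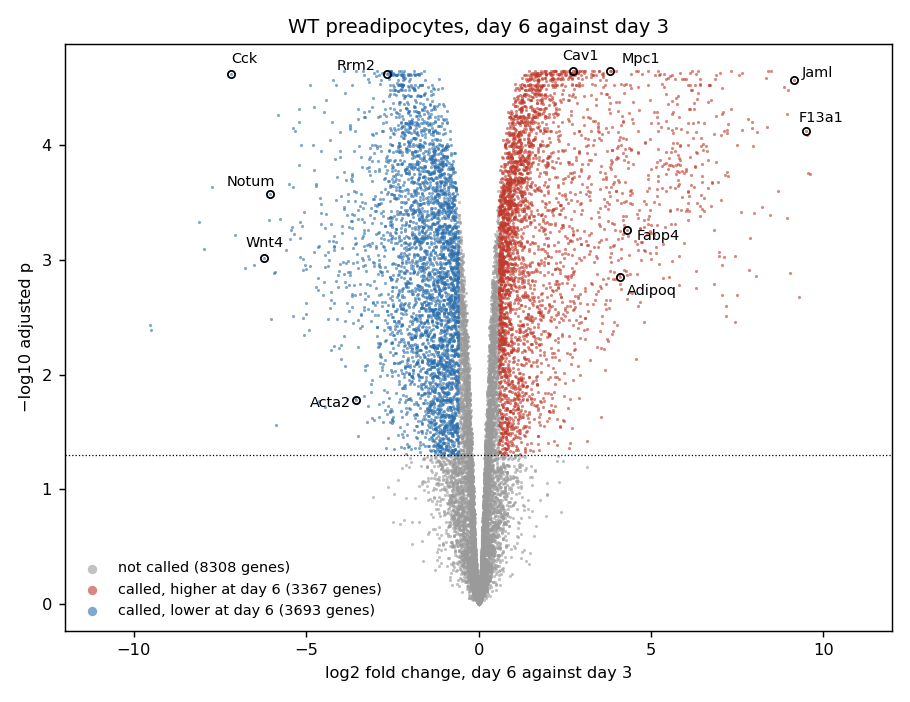
Change of every tested gene from day 3 to day 6 in WT preadipocytes: the log2 fold change (day 6 over day 3) on the x axis and -log10 of edgeR's adjusted p on the y axis, with called genes coloured by direction and a few named. Called genes stand on both sides, 3367 higher and 3693 lower at day 6.

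**Figure D2:**
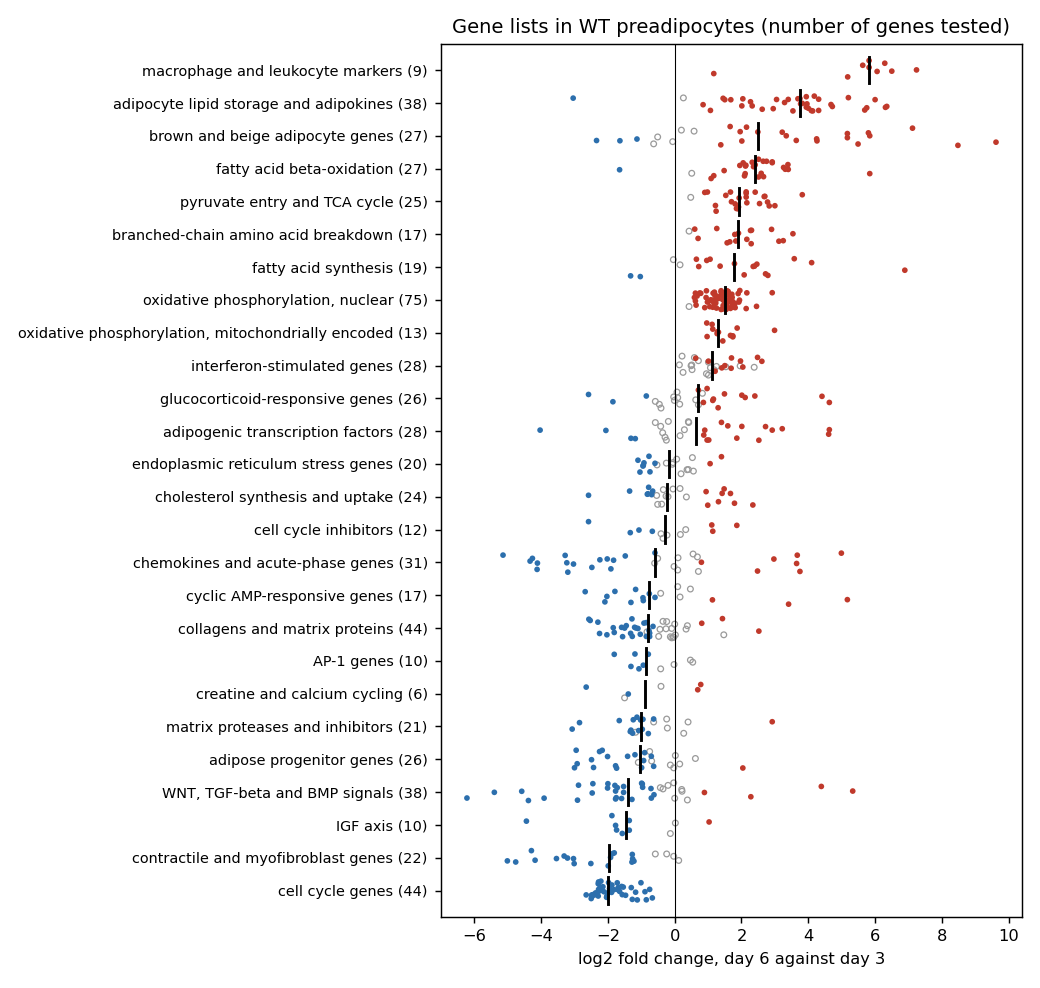
Log2 change from day 3 to day 6 of each tested member of the gene lists (filled points for called genes, open points for the rest, spread vertically for legibility), with the list's median as a black bar and a line at 0. The median lies at 3.76 for lipid storage genes, 1.5 for nuclear genes of oxidative phosphorylation, -1.99 for cell cycle genes and -1.96 for contractile genes.

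The late factors of the adipogenic relay rose, and the early ones did not move past the threshold. Pparg (ENSMUSG00000000440.12, on chromosome 6, 115360951 to 115490399, plus strand, of mm10), the master regulator of fat cells, had 11.7, 23.4 and 19.0 CPM in the day 3 libraries and 130, 147 and 134 CPM at day 6. That is a 7.6-fold rise, a log2 change of 2.92 ± 0.24 (SE) with an adjusted p of 0.000113 by edgeR. Cebpa, its partner, had 24.6, 59.2 and 54.2 CPM at day 3 and 390, 467 and 431 CPM at day 6, 9.34-fold higher (edgeR adjusted p = 0.000301). In both genes every day 6 library lay above every day 3 library, and replicate 1 was the lowest of day 3. Cebpb, which acts at the onset of adipogenesis, had 25.3, 21.2 and 23.8 CPM at day 3 and 24.4, 27.0 and 27.2 CPM at day 6, a log2 difference of 0.16 that did not pass (edgeR adjusted p = 0.201). Its companion Cebpd had a log2 difference of -0.58 (edgeR adjusted p = 0.145) and reached the call only without replicate 2 of day 3, at -0.84 with an adjusted p of 0.011. Ppara, the fatty acid receptor of oxidative tissues, had 0.912, 1.48 and 1.23 CPM at day 3 and 23.8, 31.7 and 34.3 CPM at day 6, a 24.8-fold rise (edgeR adjusted p = 2.25e-05). Klf15, a glucocorticoid-induced activator of adipogenesis, rose 3.66-fold, and the log2 change of Nr1h3, the oxysterol receptor LXRα, was 2.72. Among the factors that hold adipogenesis back, Gata2 fell from 32.4, 18.1 and 21.7 CPM to 2.84, 1.03 and 0.504 CPM, to 0.0607 of its day 3 mean (edgeR adjusted p = 0.00108), a log2 change of -4.03 that was -4.92 without replicate 1 of day 6. Runx2, the bone lineage regulator, changed by -1.31 on the log2 scale. Over the list, 14 of the 28 tested factors rose, 4 fell and 10 did not pass (1 of the 29 listed was not tested), with a median of 0.65. The 20 activators held 13 of the risers and 1 gene that fell (median 1.0), and the 8 tested brakes had 1 that rose and 3 that fell (median -0.33).

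Genes of the lipid droplet and of fat storage rose almost without exception. Of 38 tested members (of 40 listed), 36 rose, 1 fell and 1, Irs2, did not pass at a log2 difference of 0.26. The median log2 change was 3.76, and the summed level went from 1861 to 5069 CPM per library at day 3 to 39491 to 47672 CPM at day 6. All 6 droplet coat genes rose, as did all 5 for lipolysis, all 6 tested for fatty acid uptake and binding and all 9 for triglyceride assembly. Fabp4, the fatty acid carrier of fat cells (ENSMUSG00000062515.3, chromosome 3, 10204088 to 10208576, minus strand), had 224, 907 and 565 CPM at day 3 and 10548, 12839 and 10365 CPM at day 6. The rise was 19.9-fold, with a log2 change of 4.31 ± 0.52 (SE) and an adjusted p of 0.000546 by edgeR. The day 3 libraries thus differed among themselves, with replicate 1 the lowest, and none came near a day 6 library. Lpl, the lipoprotein lipase, showed the same order, with 358, 1463 and 1108 CPM at day 3 and 7142, 7688 and 7727 CPM at day 6, 7.7-fold higher. Adipoq, which encodes the hormone adiponectin (ENSMUSG00000022878.5, chromosome 16, 23146536 to 23158028, plus strand), had 21.4, 117 and 67.0 CPM at day 3 and 1080, 1322 and 1105 CPM at day 6, 17.1-fold higher (edgeR adjusted p = 0.00141), with a log2 change of 4.09 that was 4.72 without replicate 2 of day 3. Slc2a4, the insulin-responsive glucose transporter GLUT4, had 0.547, 2.6 and 1.78 CPM at day 3 and 115, 159 and 131 CPM at day 6. Its 82.3-fold rise was the largest of the storage list, with a log2 change of 6.35 ± 0.42 (SE) and an adjusted p of 6.34e-05 by edgeR. Further log2 changes were 5.69 for Pck1, the glycerol-supplying enzyme PEPCK (6.65 without replicate 3 of day 3), 5.2 for Retn, the hormone resistin, 3.94 for the droplet protein Cidec, 3.82 for Plin1 and 2.62 for Plin2, which coat the droplet, 3.77 for Lipe, the hormone-sensitive lipase, 3.05 for Lpin1 and 2.27 for Dgat2, which complete triglyceride synthesis. The 1 gene that fell was Nnat, neuronatin, with 24.1, 23.4 and 31.3 CPM at day 3 and 4.98, 2.22 and 2.35 CPM at day 6. Lep, the hormone leptin, was not tested, having no more than 1 count in any library.

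Fatty acid synthesis followed, with 15 of 19 genes higher, 2 lower and a median of 1.79. Fasn, the fatty acid synthase, had 448, 597 and 546 CPM at day 3 and 2332, 3199 and 2822 CPM at day 6, 5.25-fold higher. Scd1, which introduces the double bond of oleate, had 882, 2112 and 1430 CPM at day 3 and 21445, 28885 and 25322 CPM at day 6, 17.1-fold higher. On the log2 scale Acaca, the carboxylase that commits carbon to the pathway, rose by 2.35, and of the enzymes that supply NADPH the malic enzyme Me1 rose by 2.46 and G6pdx by 2.08. Acly, the citrate lyase, had 360, 381 and 376 CPM at day 3 and 550, 706 and 589 CPM at day 6, a log2 change of 0.72 that dropped to 0.58, below the fold required, with scaling by library size only. The 2 that fell were the elongase Elovl6 (-1.32) and the desaturase Fads2 (-1.03).

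Brown and beige adipocyte genes rose in part, and the 4 tested genes for heat production all did. Ucp1 (ENSMUSG00000031710.4, chromosome 8, 83290352 to 83298452, plus strand) had 0.0456, 0.0896 and 0.342 CPM in the day 3 libraries and 8.09, 10.8 and 10.9 CPM at day 6. The ratio of means was 62.5, with a log2 change of 5.8 ± 0.45 (SE) and an adjusted p of 5.67e-05 by edgeR, and the change was 7.09 without replicate 3 of day 3. Cidea, a droplet protein typical of brown fat, had 1, 1 and 0 counts at day 3, at or under the 3 counts that a library can miss, and 254, 317 and 285 counts at day 6. Ppargc1a, the co-activator of mitochondrial biogenesis, had 0.228, 0.717 and 1.06 CPM at day 3 and 25.5, 24.1 and 25.8 CPM at day 6, 37.7-fold higher. In these genes the days were far apart, and the day 3 libraries were near zero. They had enough counts to be tested only through day 6, so that their calls could only be rises. Log2 changes were 5.49 for the cytochrome oxidase subunit Cox7a1, 5.17 for the elongase Elovl3, 3.64 for the β3-adrenergic receptor Adrb3 and 1.96 for Letmd1. Cpt1b, the muscle and brown fat form of the enzyme that admits fatty acids to mitochondria, had 0.456, 1.12 and 0.616 CPM at day 3 and 36.5, 48.7 and 40.2 CPM at day 6. It rose 57.2-fold, while Cpt1a, the form of liver and many other tissues, fell from 135, 136 and 130 CPM to 45.3, 36.7 and 46.3 CPM. Its log2 change was -1.65 ± 0.1 (SE), with an adjusted p of 2.98e-05 by edgeR. Other members of the brown list went the opposite way. Dio2, the deiodinase that makes T3 inside the cell, had 69.8, 40.5 and 43.0 CPM at day 3 and 10.5, 9.09 and 10.7 CPM at day 6, 0.197 of the day 3 mean (edgeR adjusted p = 0.000179). Tbx15, a transcription factor of adipose precursors, fell from 127, 89.3 and 94.1 CPM to 49.4, 38.8 and 53.5 CPM, and Acot11, a thioesterase of brown fat, changed by -1.64 on the log2 scale. Prdm16, the brown fat determination factor, had 8.07, 9.05 and 7.39 CPM at day 3 and 6.87, 5.92 and 4.36 CPM at day 6. Its log2 difference of -0.51 did not pass on fold. It passed with scaling by library size only, at -0.65, and without replicate 1 of day 6, at -0.64 with an edgeR adjusted p of 0.0331. Over the list, 27 of 37 members were tested, of which 19 rose, 3 fell and 5 did not pass (median 2.49, and also 2.49 with the 4 genes whose day 3 libraries were at or under 3 counts set to their bound). The 4 genes set to their bound could likewise only be called as rises. The 4 tested genes of heat production all rose, from a day 3 sum of 1.19 to 6.0 CPM over the 5 listed. Among 8 tested transcription regulators 3 rose, 1 fell and 4 did not pass.

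The creatine and calcium cycles, which can burn ATP for heat without UCP1, did not share that direction. Of 6 tested genes (of 10 listed), 2 rose, 2 fell and 2 did not pass, with a median of -0.9. Alpl, the phosphatase that splits phosphocreatine in fat cell mitochondria, changed by -2.65 on the log2 scale, and Slc6a8, the creatine transporter, by -1.39. The synthesis enzymes Gatm and Gamt rose by 0.78 and 0.69, but neither call was firm. With scaling by library size only Gatm was at 0.64 (edgeR adjusted p = 0.0612) and Gamt at 0.55, below the fold required, and DESeq2 gave Gatm an adjusted p of 0.0577. Gatm also lost its call without replicate 1 of day 3 (adjusted p = 0.0817), replicate 3 of day 3 (0.077) or any day 6 library (0.0659, 0.0617 and 0.0974), and Gamt without replicate 1 of day 3 (0.06) or replicate 2 of day 6 (0.0659), all by edgeR.

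**Figure D3:**
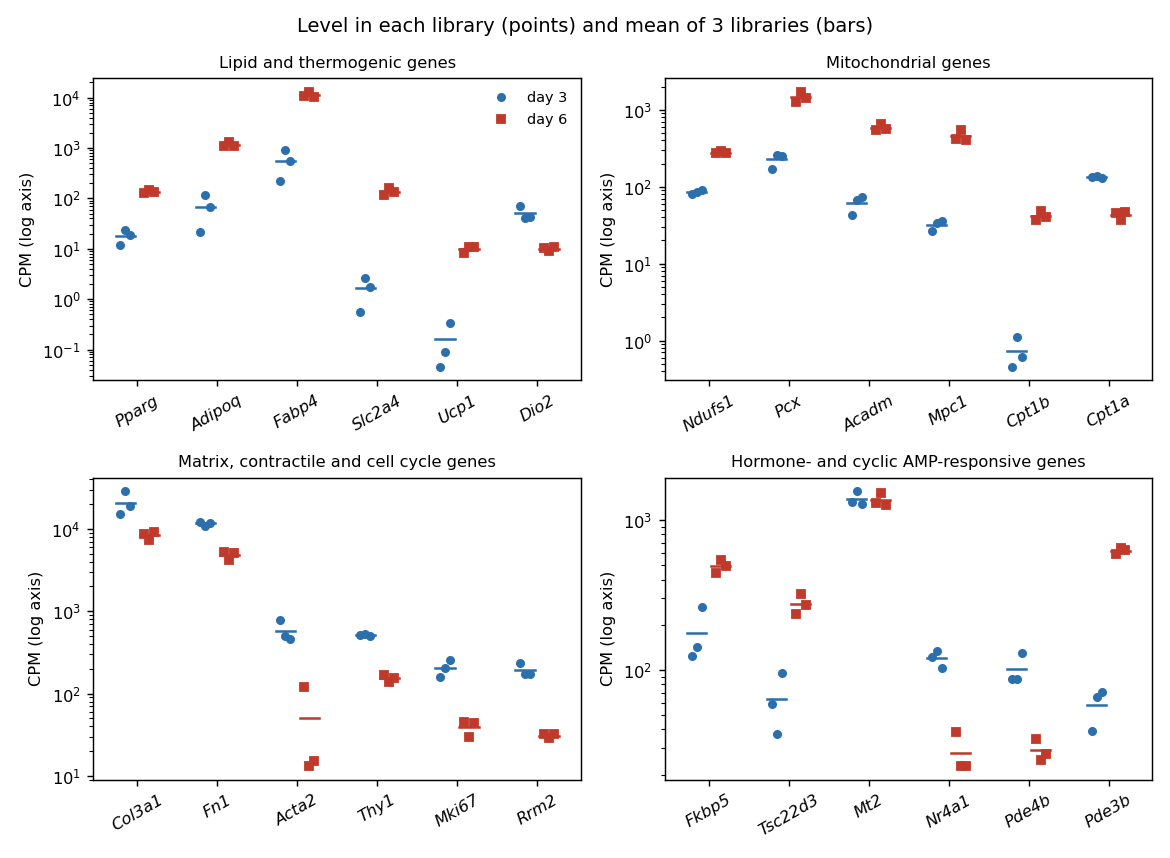
Level of 24 named genes in each of the 6 WT libraries, in CPM on a log10 axis, with day 3 and day 6 side by side, points for single libraries and bars for the mean of 3. Pparg, Ucp1, Ndufs1 and Fkbp5 stand higher at day 6, Cpt1a, Col3a1, Mki67 and Nr4a1 lower, and Mt2 level.

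Mitochondrial energy genes rose as whole pathways. Of the 75 nuclear genes of oxidative phosphorylation, 74 rose, and the exception, Atp5g2, had a log2 difference of 0.43. All 36 genes of complex I, the 4 of complex II, the 9 of complex III and the 11 of complex IV with cytochrome c rose, as did 14 of 15 of the ATP synthase. The changes were moderate and alike, with a median of 1.5, and the sum went from 5667 to 6443 CPM at day 3 to 16740 to 20441 CPM at day 6. Ndufs1, the largest subunit of complex I, had 81.3, 85.1 and 90.9 CPM at day 3 and 272, 289 and 273 CPM at day 6, 3.24-fold higher. Uqcrc1 of complex III rose 3.44-fold, Cox5b of complex IV 2.74-fold and Atp5b, the catalytic subunit of the ATP synthase, 3.49-fold. Each of these 4 had no overlap between days. The 13 genes of the mitochondrial genome all rose too, with a median of 1.31, and their sum went from 25821 to 31574 CPM to 67855 to 75654 CPM. The farthest from that median was mt-Nd6 (ENSMUSG00000064368.1, chromosome M, 13552 to 14070, minus strand), with 12.6, 19.2 and 19.9 CPM at day 3 and 130, 133 and 150 CPM at day 6. Its rise was 7.98-fold, a log2 change of 2.99.

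Fuel supply to the respiratory chain rose with it. Of 25 genes of pyruvate entry and the TCA cycle, 24 rose (median 1.93), and Idh2 did not pass at 0.48. Mpc1, a subunit of the mitochondrial pyruvate carrier, had 26.6, 33.4 and 36.2 CPM at day 3 and 420, 539 and 403 CPM at day 6, 14.2-fold higher. Pcx, pyruvate carboxylase, rose 6.4-fold. All 8 genes of pyruvate entry rose. In fatty acid β-oxidation 25 of 27 genes rose and 1, Cpt1a, fell (median 2.41). Acadm, the medium-chain dehydrogenase, had 42.9, 67.4 and 72.7 CPM at day 3 and 542, 652 and 565 CPM at day 6, 9.61-fold higher. Cpt2, which works behind Cpt1b, rose 5.32-fold and Hadha, the trifunctional protein, 4.35-fold. In the breakdown of branched-chain amino acids 16 of 17 genes rose (median 1.91), with Acadsb at 0.43. Bcat2, the transaminase that opens the pathway, had 25.3, 49.6 and 40.7 CPM at day 3 and 397, 546 and 405 CPM at day 6, 11.7-fold higher.

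Cholesterol genes had no common direction: of 24, 8 rose, 7 fell and 9 did not pass, with a median of -0.23. Hmgcs1, early in the pathway, had 136, 163 and 184 CPM at day 3 and 482, 543 and 509 CPM at day 6, 3.18-fold higher. Insig1, which restrains the pathway, changed by 2.34 on the log2 scale and the demethylase Cyp51 by 1.79. Among those that fell, the regulator Srebf2 changed by -0.82. With a threshold of 1 on the log2 scale the number that fell went from 7 to 2.

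Every measured gene of the cell cycle list fell. The list holds 20 genes of DNA replication and S phase and 24 of mitosis, and all 44 fell without overlap between days, with a median log2 change of -1.99. The sum over the list was 2072 to 2661 CPM at day 3 and 608 to 717 CPM at day 6. Mki67, the proliferation antigen Ki-67 (ENSMUSG00000031004.8, chromosome 7, 135689784 to 135716361, minus strand), had 159, 206 and 256 CPM at day 3 and 45.2, 29.7 and 44.1 CPM at day 6, 0.191 of the day 3 mean. Rrm2, which makes the building blocks of DNA, had 233, 174 and 175 CPM at day 3 and 32.0, 28.6 and 32.5 CPM at day 6, 0.16 of the day 3 mean. Mcm5, of the replicative helicase, fell from 42.4, 53.0 and 52.4 CPM to 9.87, 10.2 and 11.9 CPM. In mitosis, the cyclin Ccnb1 fell from 48, 55.6 and 68.7 CPM to 14.1, 12.3 and 15.7 CPM. Cdc20, which turns on the anaphase-promoting complex, fell from 33.2, 34.2 and 36.0 CPM to 7.03, 5.8 and 7.72 CPM. Ube2c, its ubiquitin-conjugating partner, fell from 23.0, 27.8 and 28.4 CPM to 4.62, 4.21 and 5.29 CPM. The 3 genes lost about the same share, to 0.244, 0.199 and 0.178 of their day 3 means. The median was -1.5 for the S phase genes and -2.25 for the mitosis genes.

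Mitotic genes are known to share short promoter elements, the CCAAT box bound by NF-Y and the cell cycle homology region TTTGAA bound by the DREAM complex, so the promoters of 3 members that fell together are shown. Each is the 250 bases before the annotated start, from RefSeq on GRCm38.p6, read 5′ to 3′ on the strand of the gene, and capitals mark CCAAT or TTTGAA on either strand. They lie at chr13:100786487-100786736 on the minus strand for Ccnb1, chr4:118437344-118437593 on the minus strand for Cdc20 and chr2:164769679-164769928 on the plus strand for Ube2c.
Ccnb1: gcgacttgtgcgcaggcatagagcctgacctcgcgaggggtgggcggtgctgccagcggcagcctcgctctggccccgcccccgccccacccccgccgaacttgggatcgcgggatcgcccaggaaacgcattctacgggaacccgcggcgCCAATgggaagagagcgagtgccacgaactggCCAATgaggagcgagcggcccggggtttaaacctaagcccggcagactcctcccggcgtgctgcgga
Cdc20: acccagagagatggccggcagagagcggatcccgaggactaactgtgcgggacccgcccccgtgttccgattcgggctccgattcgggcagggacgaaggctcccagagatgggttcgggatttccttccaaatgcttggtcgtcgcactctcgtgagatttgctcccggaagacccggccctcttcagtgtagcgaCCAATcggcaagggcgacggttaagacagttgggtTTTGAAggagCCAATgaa
Ube2c: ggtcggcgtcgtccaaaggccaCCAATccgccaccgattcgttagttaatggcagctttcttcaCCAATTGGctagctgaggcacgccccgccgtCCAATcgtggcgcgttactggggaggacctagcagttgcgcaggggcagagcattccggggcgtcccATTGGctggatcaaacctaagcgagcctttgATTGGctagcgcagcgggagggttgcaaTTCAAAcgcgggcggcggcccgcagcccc
In these windows Ccnb1 has 2 CCAAT boxes and no TTTGAA, Cdc20 has 2 and 1, and Ube2c has 6 and 1, where the 8 letters CCAATTGG of the last hold 2 boxes that overlap on opposite strands. Of the 24 mitosis genes, 19 had a promoter in the table, and 17 of these (89.5%) held CCAAT, against 34.5% of all 27025 promoters of that length and 36.8% of the 10694 of tested genes. TTTGAA stood in 7 of the 19 (36.8%), against 16.3% of all promoters and 10.6% of those of tested genes. Of the S phase genes 15 of 20 had a promoter, and 9 of these (60.0%) held CCAAT. The matches are a description of the letters and not evidence of binding.

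Inhibitors of the cycle did not move as a group: 3 of 12 rose, 4 fell and 5 did not pass (median -0.29). Cdkn2c, the inhibitor p18, had 18.0, 20.3 and 28.4 CPM at day 3 and 79.1, 85.5 and 78.5 CPM at day 6, 3.65-fold higher. Rb1, the retinoblastoma protein, and the antiproliferative Btg1 changed by 1.11 and 1.14 on the log2 scale. Rbl1, a relative of Rb1 that is itself made in cycling cells, changed by -1.07 and Cdkn2d, the inhibitor p19, by -0.67. Cdkn1a, the inhibitor p21, did not pass, at -0.23 (edgeR adjusted p = 0.23). Cdkn1c, the inhibitor p57, had 18.3, 12.7 and 81.5 CPM at day 3 and 6.48, 6.95 and 5.5 CPM at day 6. Its log2 change of -2.58 was -1.29 without replicate 3 of day 3, and its call was lost without any one of the day 6 libraries, at edgeR adjusted p values of 0.0678, 0.0621 and 0.069, and with limma-voom, at an adjusted p of 0.0553.

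Genes of the extracellular matrix mostly fell. Of 44 matrix genes 25 fell, 3 rose and 16 did not pass (median -0.8), and their sum went from 87231 to 115913 CPM at day 3 to 42692 to 51766 CPM at day 6. Col3a1, a fibrillar collagen of soft connective tissue (ENSMUSG00000026043.18, chromosome 1, 45311538 to 45349706, plus strand), had 15091, 28511 and 19067 CPM at day 3 and 8639, 7413 and 9073 CPM at day 6. It fell to 0.401 of its day 3 mean, a log2 change of -1.32 ± 0.25 (SE) with an adjusted p of 0.00272 by edgeR. Col1a2, of type I collagen, had 3086, 4708 and 4245 CPM at day 3 and 2530, 1808 and 2326 CPM at day 6. Fn1, fibronectin, fell from 12295, 10733 and 11901 CPM to 5221, 4162 and 5086 CPM, a log2 change of -1.27 that was -1.96 with limma-voom and quantile normalization. These 3 genes had no overlap between days, and in both collagens replicate 1 was the lowest of day 3. Of the 7 fibrillar collagens 6 fell, and the exception was Col5a3, at 2.52. The collagens of networks and basement membranes had 2 of 11 that rose, 2 that fell and 7 that did not pass. Col4a1, of the basement membrane that coats each fat cell, had 3662, 5576 and 4899 CPM at day 3 and 4762, 4364 and 4966 CPM at day 6, with a ratio of 0.997 (edgeR adjusted p = 0.984). Col15a1, another basement membrane collagen, rose from 186, 259 and 137 CPM to 485, 522 and 557 CPM, and Col6a3, of the collagen VI microfibril, rose by 0.81 on the log2 scale. Without replicate 3 of day 3 the number of matrix genes that rose was 5. The cross-linking enzymes Lox and Loxl1 changed by -0.85 and -1.1, the collagen chaperone Serpinh1 by -1.33 and the small proteoglycan Bgn by -1.45.

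Matrix proteases and their inhibitors fell together, 14 of 21 with 1 that rose and 6 that did not pass (median -1.02). Mmp2, a gelatinase of stromal cells, fell from 711, 997 and 990 CPM to 520, 357 and 518 CPM, and Mmp14, which activates it at the cell surface, changed by -1.24 on the log2 scale. Mmp3, stromelysin, had 631, 396 and 269 CPM at day 3 and 205, 187 and 221 CPM at day 6, and its call was lost without replicate 1 (edgeR adjusted p = 0.0579) or replicate 2 (0.0664) of day 6. Its log2 change of -1.08 was -0.7 without replicate 1 of day 3. The 1 riser was Mmp9, a gelatinase also made by macrophages, with 2.83, 9.54 and 0.787 CPM at day 3 and 44.5, 25.2 and 27.7 CPM at day 6. Without replicate 1 of day 3 its adjusted p by edgeR was 0.0604, and its log2 change of 2.92 was 4.22 without replicate 2 of day 3. The macrophage markers given above were higher at day 6 too. Replicate 2 was the highest of day 3 for both Mmp9 and the marker sum. Replicate 1 of day 6 was the highest for Mmp9 and the lowest for the sum (6772, 10586 and 11044 CPM). The part of these markers was not tested.

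Genes that mark adipose progenitors fell in 17 of 26 tested cases, with 1 riser, 8 that did not pass and a median of -1.04. Thy1, the surface antigen CD90 (ENSMUSG00000032011.5, chromosome 9, 44043384 to 44048579, plus strand), had 514, 535 and 500 CPM at day 3 and 167, 140 and 157 CPM at day 6. It fell to 0.3 of its day 3 mean, a log2 change of -1.74 ± 0.1 (SE) with an adjusted p of 2.47e-05 by edgeR. Cd55, a marker of early progenitors, changed by -1.19, and Anxa3 by -0.9, the latter losing its call without replicate 2 (edgeR adjusted p = 0.0502) or replicate 3 (0.0508) of day 6. Other members had calls that rested on single libraries. Pdgfra, the PDGF receptor of fibroblasts and progenitors, had 635, 488 and 980 CPM at day 3 and 499, 230 and 333 CPM at day 6, so that the days overlapped. Its edgeR adjusted p of 0.0484 rose to 0.0857 and 0.139 without replicates 1 and 3 of day 3 and to 0.122 and 0.126 without replicates 2 and 3 of day 6. Dlk1, the preadipocyte factor Pref-1, had 9.07, 3.27 and 23.0 CPM at day 3 and 3.87, 2.9 and 2.01 CPM at day 6, also with overlap. Its edgeR adjusted p of 0.0421 became 0.0712 and 0.0971 without replicates 1 and 3 of day 3, and 0.0795, 0.108 and 0.121 without replicates 1, 2 and 3 of day 6, and its log2 change of -2.01 was -1.07 without replicate 3 of day 3. Cd34 had 39.9, 5.47 and 27.0 CPM at day 3 and 18.7, 12.4 and 13.9 CPM at day 6 and did not pass (edgeR adjusted p = 0.375), but without replicate 2 of day 3 its log2 change was -1.16 with an adjusted p of 0.00692. The 1 gene that rose was Nt5e, the surface nucleotidase CD73, at 2.04.

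Contractile genes of myofibroblasts fell in 18 of 22 cases and rose in none, with a median of -1.96 and 4 that did not pass. Acta2, smooth muscle actin, had 786, 502 and 455 CPM at day 3 and 121, 13.2 and 15.4 CPM at day 6, with replicate 1 the highest on each day. Tagln, transgelin, had 477, 307 and 290 CPM at day 3 and 84.8, 10.7 and 12.5 CPM at day 6, in the same order. Their log2 changes were -3.54 ± 0.94 and -3.31, with edgeR adjusted p values of 0.0165 and 0.0153 that became 0.0587 and 0.0562 without replicate 1 of day 3. Without replicate 1 of day 6 the changes were -5.32 and -4.92. Ccn2, the connective tissue growth factor and a target of the mechanosensor YAP, fell from 262, 151 and 40.2 CPM to 10.4, 6.91 and 7.59 CPM, to 0.0549 of its day 3 mean (edgeR adjusted p = 0.00236), a log2 change of -4.18 that was -3.52 without replicate 1 of day 3. Smtn and Tpm4, which bind actin filaments, changed by -1.86 and -1.92.

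Signals of the WNT, TGF-β and BMP families, several of which restrain adipogenesis, fell at the level of ligands, receptors and antagonists. Of 38 tested genes (of 47), 26 fell, 4 rose and 8 did not pass (median -1.41). Among 13 ligands 10 fell and 1 rose. Inhba, the subunit of activin A (ENSMUSG00000041324.14, chromosome 13, 16011851 to 16031621, plus strand), had 215, 294 and 99.7 CPM at day 3 and 12.4, 6.99 and 6.08 CPM at day 6. It fell to 0.0418 of its day 3 mean, a log2 change of -4.58 ± 0.5 (SE) with an adjusted p of 0.000388 by edgeR. Wnt4 fell from 66.0, 17.0 and 14.6 CPM to 0.395, 0.556 and 0.336 CPM, a log2 change of -6.22 that was -5.19 without replicate 1 of day 3. Inhbb and Tgfb2 changed by -2.01 and -0.99. Of the 13 receptors 7 fell and 2 rose. The WNT receptor Fzd1 changed by -1.79, and Acvr1c, the activin and GDF receptor ALK7 of mature fat cells, by 5.33. Of the 12 antagonists 9 fell and 1, the BMP antagonist Chrdl1, rose, at 4.39. Bmp4, a ligand that commits precursors to the fat lineage, was not tested, with at most 8 counts in a library, nor was the WNT antagonist Sfrp5, with at most 5. In the insulin-like growth factor axis 7 of 10 genes fell and 1 rose (median -1.47). The riser was Igfbp3, a binding protein, with 156, 149 and 152 CPM at day 3 and 361, 304 and 270 CPM at day 6. Igf2r and Igfbp7 changed by -1.36 and -1.57, and the ligand Igf1 did not pass, at -0.13 (edgeR adjusted p = 0.541).

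Across the change of medium that by the schedule took dexamethasone and IBMX away, more of the genes that answer to glucocorticoid rose than fell, and more of those that answer to cyclic AMP fell than rose. Of 26 glucocorticoid-responsive genes 12 rose, 3 fell and 11 did not pass, with a median of 0.71. Fkbp5, the receptor's co-chaperone (ENSMUSG00000024222.17, chromosome 17, 28399094 to 28517527, minus strand), had 123, 142 and 261 CPM at day 3 and 443, 542 and 496 CPM at day 6. That is a 2.81-fold rise, a log2 change of 1.49 ± 0.29 (SE) with an adjusted p of 0.00398 by edgeR. Tsc22d3, the glucocorticoid-induced leucine zipper, had 58.9, 37.2 and 94.6 CPM at day 3 and 234, 321 and 272 CPM at day 6, 4.33-fold higher. Zbtb16, another strongly induced target, went from 26.9, 37.9 and 64.2 CPM to 105, 90.7 and 94.0 CPM, with an edgeR adjusted p of 0.0148 that became 0.0714 without a filter on low counts. In these 3 genes replicate 3 was the highest of day 3 and still below all of day 6. Per1, the clock gene with a glucocorticoid response element, had 65.0, 75.5 and 69.2 CPM at day 3 and 69.2, 80.3 and 74.2 CPM at day 6, and Mt2, a metallothionein, had 1318, 1547 and 1279 CPM at day 3 and 1287, 1504 and 1253 CPM at day 6. Neither passed, at log2 differences of 0.09 and -0.03 (edgeR adjusted p = 0.39 and 0.828). Glul, glutamine synthetase, rose 5.29-fold and the sulfotransferase Sult1a1 by 4.63 on the log2 scale. Some members stand in other lists too, such as Cebpd and Klf9 among the adipogenic factors and Per1 among the genes responsive to cyclic AMP. The number that fell was 1 in place of 3 without replicate 2 or replicate 3 of day 6.

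Of 17 tested genes responsive to cyclic AMP 10 fell, 3 rose and 4 did not pass (median -0.76). The largest change was a rise, of 5.17 on the log2 scale. Summed over the list, the level went from 724 to 822 CPM at day 3 to 1061 to 1117 CPM at day 6. Nr4a1, an immediate-early nuclear receptor (ENSMUSG00000023034.7, chromosome 15, 101254269 to 101274795, plus strand), had 121, 133 and 103 CPM at day 3 and 38.2, 22.8 and 22.9 CPM at day 6. It fell to 0.235 of its day 3 mean (edgeR adjusted p = 0.000312), and the log2 change of its relative Nr4a2 was -2.68. Pde4b, the phosphodiesterase that cyclic AMP induces against itself, fell from 86.8, 87.4 and 129 CPM to 34.8, 25.0 and 27.4 CPM, and Crem, the inducible repressor, from 25.0, 28.5 and 34.4 CPM to 18.2, 16.8 and 16.8 CPM. Pde3b, the phosphodiesterase by which insulin restrains lipolysis in fat cells, went the other way, from 38.9, 65.8 and 70.8 CPM to 589, 648 and 634 CPM, 10.7-fold higher. Also among the risers of the list, Rgs2, a brake on G protein signals, had 32.2, 45.1 and 73.5 CPM at day 3 and 130, 114 and 86.6 CPM at day 6. Its call was lost without replicate 2 of day 3 (edgeR adjusted p = 0.059), replicate 1 of day 6 (0.0583) or replicate 2 of day 6 (0.0508). At a threshold of 1 on the log2 scale the number that fell was 6. The CRE palindrome TGACGTCA, bound by CREB, stood in 1 of the 15 promoters of the list found in the table (6.67%). It stood in 1.62% of all promoters of that length and in 2.78% of those of tested genes. The share of the list rests on 1 promoter.

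AP-1 genes fell in 6 of 10 tested cases and rose in none (median -0.86). Fosl2 fell from 326, 311 and 255 CPM to 144, 122 and 126 CPM, and Fosl1 and Junb changed by -1.81 and -0.94. Mafk changed by -0.79 and was below the fold required without replicate 1 of day 3, at -0.58. Jun had 58.0, 42.6 and 49.2 CPM at day 3 and 44.1, 52.0 and 51.2 CPM at day 6 and did not pass (edgeR adjusted p = 0.88). Fos did not pass at -0.42 (edgeR adjusted p = 0.373), but without replicate 1 of day 6 its log2 change was -0.95 with an adjusted p of 0.00758.

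Chemokines and cytokines mostly fell, and acute-phase genes split. Of 20 tested chemokines and cytokines 14 fell, 3 rose and 3 did not pass, with a median of -2.07. Ccl2, which draws monocytes, had 99.7, 72.5 and 37.9 CPM at day 3 and 4.26, 2.82 and 4.99 CPM at day 6, 0.0575 of the day 3 mean. Cxcl1, which draws neutrophils, changed by -3.2. Cxcl12, a stromal chemokine, changed by -0.59 and dropped out without replicate 1 of day 3 (-0.47), replicate 2 of day 6 (-0.53) or replicate 3 of day 6, where its edgeR adjusted p was 0.0527. Against this direction, Ccl9, a chemokine of myeloid cells, rose from 6.34, 19.0 and 16.2 CPM to 137, 204 and 220 CPM, and Cxcl13, which draws B cells, from 1.23, 0.717 and 4.99 CPM to 78.0, 77.9 and 76.1 CPM, a log2 change of 4.99 that was 6.31 without replicate 3 of day 3. Both were higher at day 6, as the macrophage markers were. Within day 6 Cxcl13 was level, while the marker sums were 6772, 10586 and 11044 CPM. The part of the macrophage markers was not tested. Of 11 acute-phase and complement genes 4 rose, 2 fell and 5 did not pass (median 0.68). Hp, haptoglobin, which fat cells secrete, went from 18.8, 179 and 109 CPM to 1257, 1412 and 1171 CPM, a log2 change of 3.65 that was 4.32 without replicate 2 of day 3. Saa3, serum amyloid A3, went from 54.8, 124 and 282 CPM to 1515, 2451 and 1909 CPM, a log2 change of 3.67 that was 4.46 without replicate 3 of day 3. Ptx3 changed by -2.02. The complement component C3 did not pass, at 0.68 (edgeR adjusted p = 0.236), but without replicate 3 of day 3 its log2 change was 1.34 with an adjusted p of 0.00521.

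All 28 interferon-stimulated genes had a positive log2 difference, and 11 of them rose while 17 did not pass (median 1.12). Oas1a, which makes the activator of the antiviral RNase L, and Ifi27 changed by 2.61 and 1.69. In Ifit3, replicate 2 of day 6 stood below all other libraries, with 3.01, 2.87 and 5.88 CPM at day 3 and 5.61, 0.794 and 11.5 CPM at day 6, and the gene did not pass (edgeR adjusted p = 0.556). Without that library the number that rose was 18. The macrophage markers, which summed to 6772, 10586 and 11044 CPM in the day 6 libraries, were higher at day 6 as well, and their part was not tested.

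Genes of the stressed endoplasmic reticulum had 8 of 20 that fell, 2 that rose and 10 that did not pass (median -0.16). Hspa5, the chaperone BiP, had 990, 1199 and 1149 CPM at day 3 and 918, 905 and 989 CPM at day 6 and did not pass (edgeR adjusted p = 0.0922). Hyou1 and Manf, which help proteins fold, changed by -1.1 and -0.95. The risers were Dnajb9, at 1.4, and Trib3, at 1.06, whose edgeR adjusted p without replicate 2 of day 6 was 0.0583. At a threshold of 1 on the log2 scale 2 genes of the list fell.

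The HMGN proteins bind nucleosomes and loosen chromatin. None of the 4 tested members, of which the DKO cells lack HMGN1 and HMGN2, passed the call in WT cells. Hmgn1 (ENSMUSG00000040681.16, chromosome 16, 96120618 to 96127729, minus strand) had 154, 159 and 177 CPM at day 3 and 118, 117 and 111 CPM at day 6, without overlap. Its log2 difference of -0.51 ± 0.08 (SE) had an adjusted p of 0.00149 by edgeR but fell short of 1.5-fold, which it passed at -0.65 with scaling by library size only and at -0.61 with limma-voom and quantile normalization. Hmgn2 had 90.1, 120 and 140 CPM at day 3 and 109, 120 and 110 CPM at day 6 (edgeR adjusted p = 0.801). Hmgn3 and Hmgn5 had log2 differences of -0.33 and -0.22.

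With an adjusted p of 2.25e-05 by edgeR, the smallest value of the comparison and shared by several genes, stood Arl4a, a small GTPase, with 22.9, 27.7 and 23.0 CPM at day 3 and 275, 293 and 259 CPM at day 6. Cav1, the coat of caveolae, which fill the fat cell membrane, had 168, 155 and 181 CPM at day 3 and 1110, 1148 and 1097 CPM at day 6. Coq8a, which serves coenzyme Q synthesis, had 5.43, 5.6 and 5.64 CPM at day 3 and 67.0, 88.7 and 83.7 CPM at day 6. These genes were picked by the smallest p, a rule that favours large changes with little spread between libraries. Ahcyl2 rose 3.48-fold, and Cd37, a tetraspanin of leukocytes, went from 0.182, 0.179 and 0.171 CPM to 10.8, 15.3 and 13.8 CPM. The genes of the same rank that fell carry names of predicted genes or of ribosomal protein pseudogenes, Gm10275 (111, 108 and 128 CPM at day 3, 10.9, 9.57 and 8.98 CPM at day 6), Gm10260, Gm11808, Rps12-ps3 and Rpsa-ps10, with log2 changes between -3.56 and -2.54. They may share reads with near-identical genes, which the counting divides by estimate, so their levels are uncertain. The 3 largest rises among protein-coding genes over 5 CPM were in F13a1, Jaml and Clec4a1, known from leukocytes. F13a1, coagulation factor XIII A of macrophages, had 0, 0.448 and 1.09 CPM at day 3 and 308, 523 and 390 CPM at day 6, with a ratio of 791 and a log2 change of 9.5 that was 10.78 without replicate 3 of day 3. Jaml had 1, 3 and 1 counts at day 3 and 689, 1376 and 1017 counts at day 6, and the myeloid lectin Clec4a1 had 0, 2 and 0 counts at day 3 and 268, 544 and 376 counts at day 6. They were higher at day 6, as the 9 macrophage markers were, and what these cells contribute was not tested. The 3 largest falls by the same rule were in Cck, Notum and Wnt4, all secreted. Cck, the hormone cholecystokinin, had 93.9, 115 and 71.4 CPM at day 3 and 0.987, 0.397 and 0.545 CPM at day 6, and Notum, an enzyme that inactivates WNT ligands, had 22.2, 9.63 and 6.84 CPM at day 3 and 0.158, 0.238 and 0.168 CPM at day 6, a log2 change of -6.06 that was -5.41 without replicate 1 of day 3.

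The steps before and after share libraries with this one, so their values are set side by side without a test of their likeness. In 1 fit over the 12 WT libraries with 16188 genes tested, 3991 genes (24.7%) were called from day 0 to day 3, 11.1% of those tested as higher and 13.6% as lower, and 2270 (14.0%) from day 6 to day 9, 8.8% as higher and 5.22% as lower. From day 0 to day 3, 33 of 38 lipid storage genes rose (median 2.42), but 1 of 75 nuclear genes of oxidative phosphorylation did (median 0.06), and from day 6 to day 9 none of the 75 passed (median 0.13). On a scale shared by all 48 libraries, the sum over those 75 genes was 5613 to 6258 CPM at day 0, 6036 to 6906 CPM at day 3, 17382 to 21299 CPM at day 6 and 20058 to 20686 CPM at day 9. Of the 3 steps, that from day 3 to day 6 was the one in which more than 1 of the 75 was called. Cell cycle genes had risen before they fell: 36 of 44 rose from day 0 to day 3 (median 0.84), and 34 fell further from day 6 to day 9 (median -1.5). Their sum was 1103 to 1654 CPM at day 0, 2207 to 2881 CPM at day 3, 633 to 744 CPM at day 6 and 359 to 402 CPM at day 9. Contractile genes had fallen already, 17 of 22 from day 0 to day 3 with a median of -1.73. Of the glucocorticoid-responsive genes 21 of 26 rose from day 0 to day 3 and 3 from day 6 to day 9. The mean of Fkbp5 was 31.7, 189, 514 and 505 CPM at days 0, 3, 6 and 9, that of Tsc22d3 24.3, 68.4, 287 and 413 CPM, and that of Mt2 182, 1482, 1404 and 997 CPM. Col3a1 was at 9323, 22428, 8725 and 6500 CPM, and Ucp1 was at 0.0496, 0.172, 10.4 and 6.34 CPM. Interferon-stimulated genes fell in 23 of 28 cases from day 0 to day 3 (median -2.3). The 9 macrophage markers summed to 141 to 500 CPM at day 0, 73.6 to 264 CPM at day 3, 7032 to 11539 CPM at day 6 and 3253 to 7055 CPM at day 9.

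**Figure D4:**
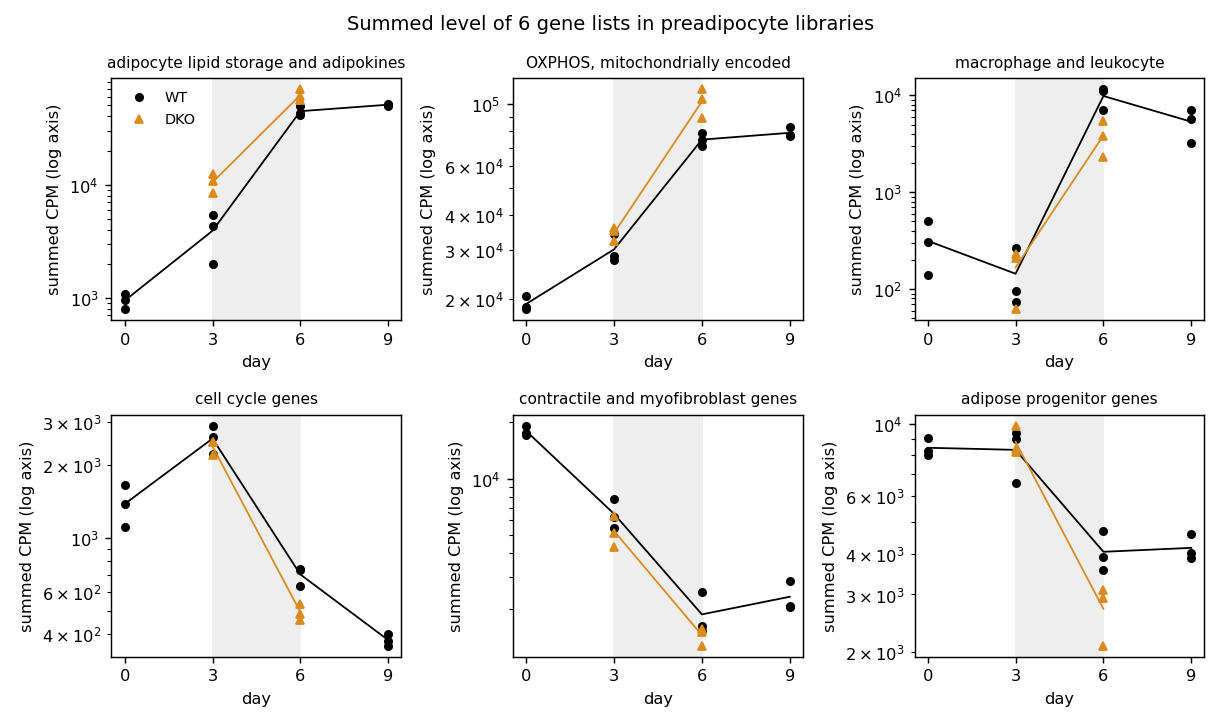
Summed level of 6 gene lists in each library by day of culture, in CPM on a log10 axis, for WT preadipocytes at days 0, 3, 6 and 9 and DKO preadipocytes at days 3 and 6, with lines through the means of 3 libraries. The shaded band marks the step from day 3 to day 6. In WT the lipid storage sum goes from 1982 to 5433 CPM at day 3 to 41006 to 49673 CPM at day 6, the macrophage marker sum is highest at day 6 and the cell cycle sum at day 3.

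The series asks what the loss of HMGN1 and HMGN2 does to this course, and the step itself was compared between genotypes. In the DKO libraries Hmgn2 was at 0 to 0.372 CPM. Hmgn1, counted over the whole gene, still had 94.4 to 112 CPM at day 3 and 94.8 to 103 CPM at day 6, against 164 to 192 CPM and 116 to 122 CPM in WT. The counts per gene do not show which exons these reads came from. Taken alone, the DKO step had 7527 of 15008 genes called (50.2%), 3601 higher (24.0%) and 3926 lower (26.2%). The difference between the WT and the DKO step passed in 51 of 15975 genes (0.319%), with 29 more positive in WT (0.182%) and 22 more negative (0.138%). With scaling by library size only the count was 45, of which 34 (75.6%, against 56.9%) were more positive in WT. The count is not firm. Leaving out 1 of the 12 libraries gave 6 to 87 genes: 10, 31 and 51 without WT day 3 replicates 1, 2 and 3, 13, 55 and 6 without WT day 6 replicates 1, 2 and 3, 15, 10 and 21 without DKO day 3 replicates 1, 2 and 3, and 19, 87 and 11 without DKO day 6 replicates 1, 2 and 3. DESeq2 called 577. The macrophage markers were higher at day 6 in DKO too. Scaled over all 48 libraries, they summed at day 6 to 7032 to 11539 CPM in WT and 2334 to 5424 CPM in DKO, without overlap. At day 3 the sums were 73.6 to 264 CPM and 62.1 to 232 CPM. Their part in the differences between genotypes was not tested. Among the 27 gene lists, the members that edgeR called in this difference numbered at most 2 in any list. Lipid storage and the matrix had 2 each. These counts do not show that the lists moved alike in both genotypes. For example, no brown or beige gene was called, and their day 6 sums were 657 to 837 CPM in WT and 1609 to 2067 CPM in DKO. At day 3 those sums were 243 to 319 CPM and 309 to 348 CPM.

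Pttg1, securin, which holds back the separation of sister chromatids until anaphase (ENSMUSG00000020415.16, chromosome 11, 43420250 to 43426251, minus strand), moved in opposite directions. In WT it went from 10.9, 11.7 and 13.1 CPM at day 3 to 4.8, 4.68 and 4.91 CPM at day 6, and in DKO from 11.0, 11.9 and 10.6 CPM to 36.4, 34.8 and 41.3 CPM. The log2 steps were -1.27 and 1.79, and their difference was -3.06 ± 0.14 (SE), with an adjusted p of 2.82e-06 by edgeR. Gabarapl1, an autophagy protein, rose in DKO, from 168, 154 and 173 CPM to 466, 426 and 593 CPM, and had 275, 220 and 199 CPM at day 3 and 233, 249 and 255 CPM at day 6 in WT. Mthfd2, of mitochondrial folate metabolism, rose in DKO from 39.3, 37.6 and 38.4 CPM to 99.1, 96.8 and 112 CPM and had 45.4, 53.1 and 39.4 CPM and 49.0, 56.7 and 51.3 CPM in WT. Ggt5, a glutathione-cleaving enzyme, fell in DKO from 44.8, 57.1 and 41.4 CPM to 15.7, 17.0 and 14.0 CPM, with 27.0, 29.1 and 33.2 CPM and 41.6, 36.0 and 40.8 CPM in WT. In these 3 genes the WT step did not pass. The log2 differences, WT minus DKO, were -1.5, -1.23 and 2.03, with edgeR adjusted p values of 0.019, 0.01 and 0.000738. Genes of lists above fell in both genotypes, by more in DKO: Col1a2 changed by -0.85 in WT and -2.42 in DKO (difference 1.56, edgeR adjusted p = 0.0298), Mmp2 by -0.95 and -2.37 (1.42, 0.0395) and Cdc20 by -2.33 and -3.65 (1.32, 0.0222). These last 3 calls depended on single libraries: with 1 library left out, Col1a2 kept its call only without WT day 3 replicates 2 or 3, WT day 6 replicate 2 or DKO day 6 replicate 2 (edgeR adjusted p up to 0.136 otherwise), Mmp2 only without WT day 3 replicate 3, WT day 6 replicate 2 or DKO day 6 replicate 2 (up to 0.145), and Cdc20 only without these 3, WT day 3 replicate 2 or DKO day 3 replicate 1 (up to 0.0957). Gabarapl1 lost its call without DKO day 3 replicate 2 (edgeR adjusted p = 0.0656) or WT day 6 replicate 1 (0.0586) or 3 (0.0796), and Mthfd2 without WT day 6 replicate 3 (0.0581), while Pttg1 and Ggt5 kept theirs in all 12 cases.

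**Figure D5:**
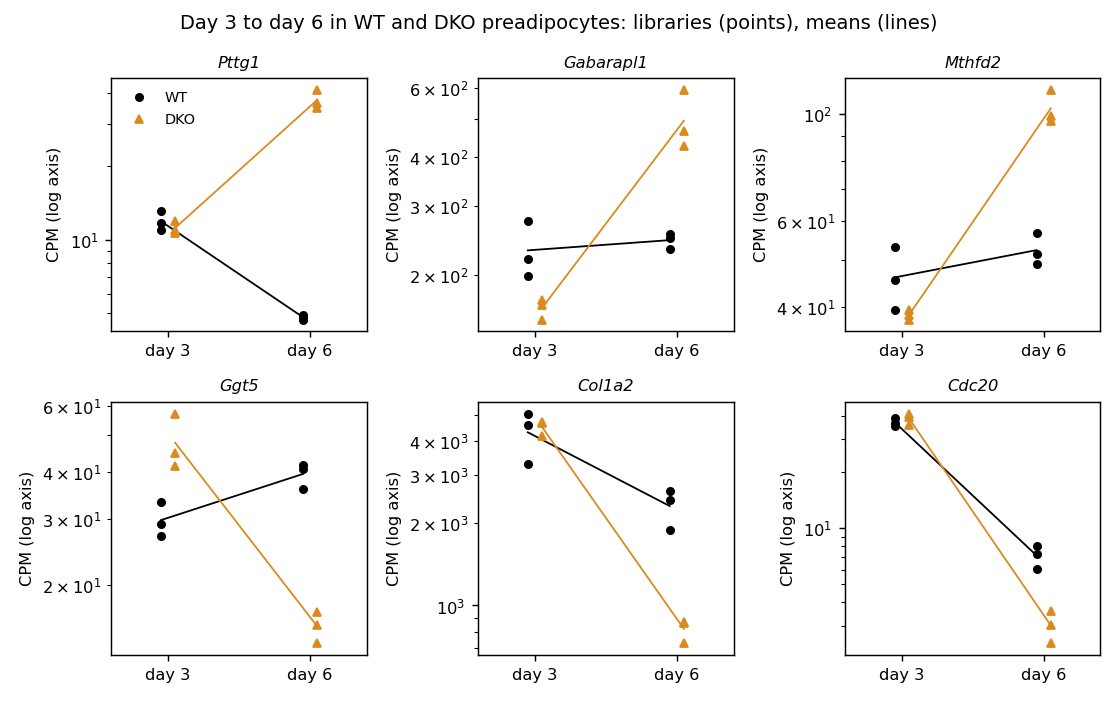
Level of 6 genes whose step from day 3 to day 6 differed between genotypes, in CPM on a log10 axis, for each WT and DKO library. Pttg1 goes down in WT and up in DKO, with day 6 levels of 4.68 to 4.91 CPM and 34.8 to 41.3 CPM.

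The other comparison is with MEFs, embryonic fibroblasts of wild type C57BL/6 genotype that stayed in the differentiation medium to day 8, so that dexamethasone, IBMX and rosiglitazone were not withdrawn between day 4 and day 8. Cell system, days and medium all differ, and their parts cannot be told apart. In the MEFs, replicate 1 of day 4 and replicate 2 of day 8 stood apart from the other libraries of their day. Whether these libraries carry exchanged labels cannot be told from the sources used here, and every MEF value takes the labels as given. Adipoq, for example, was at 84.2, 4.61 and 3.61 CPM at day 4 and at 237, 18.6 and 233 CPM at day 8. With all 6 libraries edgeR called 0 of 15345 genes between the days (2248 at an unadjusted p below 0.05, and 278 called by DESeq2), and without those libraries it called 4176 of 15602. The preadipocyte step differed from the MEF step in 5865 of 16369 genes (35.8%), 2707 more positive (16.5%) and 3158 more negative (19.3%) in preadipocytes, and in 6471 without both libraries. Of the 26 glucocorticoid-responsive genes 8 were more positive in preadipocytes and 4 more negative, and of the 17 responsive to cyclic AMP 3 and 6. Fkbp5 in MEFs had 333, 255 and 253 CPM at day 4 and 313, 269 and 315 CPM at day 8, a step smaller by 1.35 on the log2 scale (edgeR adjusted p = 0.00853, and 1.15 and 0.0405 without both libraries). Tsc22d3 had 184, 177 and 178 CPM and 219, 228 and 224 CPM, smaller by 1.75 (edgeR adjusted p = 0.00312). The steps of Per1 (difference 0.19, edgeR adjusted p = 0.233) and Zbtb16 (0.72, 0.187) did not differ past the threshold, though Zbtb16 did without replicate 3 of day 3 (1.14, 0.0206). Nr4a1 fell by more in preadipocytes, with a difference of -0.79 (edgeR adjusted p = 0.0425), and this was lost without both libraries (-0.75, 0.0766) and without any one of 8 libraries, preadipocyte day 3 replicates 1 and 2 and day 6 replicates 2 and 3 and MEF day 4 replicates 1 and 2 and day 8 replicates 1 and 3 (0.0756 to 0.102). Nr4a1 was lower at day 8 in MEFs too, with 52.9, 61.3 and 75.1 CPM at day 4 and 26.6, 22.2 and 26.2 CPM at day 8. That log2 step of -1.34 did not pass (edgeR adjusted p = 0.258), nor did one of -0.9 for Crem (0.336). Pde4b had 69.5, 93.6 and 87.2 CPM at day 4 and 68.8, 75.4 and 68.4 CPM at day 8 in MEFs, a difference of -1.6 (edgeR adjusted p = 0.000529). Rgs2 differed by 1.28 (edgeR adjusted p = 0.0174). Crem and Mt2 did not differ with all libraries (0.09 and 0.29, edgeR adjusted p = 0.866 and 0.447) and did without both (0.69 and 0.69, 0.00873 and 0.0131).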

How the data were processed

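RNA was sequenced from WT preadipocytes of 2 days of differentiation, 3 libraries each, with 42 further libraries in the series. Per the labels, the authors trimmed reads with cutadapt 1.18, aligned them with STAR 2.7.0f to mm10 and deposited expected counts per gene from RSEM 1.3.0, in 1 table for preadipocytes and 1 for MEFs of 55450 GENCODE genes. The labels name polyA RNA, while the methods of the study name a stranded total RNA kit. Expected counts divide reads shared by similar genes by estimate. Here they were rounded to whole numbers, genes were filtered with filterByExpr, libraries were scaled with TMM, and the days were compared with edgeR 4.0.16 (robust quasi-likelihood test, R 4.3.3) in the 6 libraries, with Benjamini-Hochberg adjustment over all tested genes. A gene was called at an adjusted p below 0.05 and a 1.5-fold change. CPM are TMM-scaled, and a ratio of day 6 to day 3 is of mean CPM. A day with at most 3 counts in every library got no ratio. The genotype and MEF differences were interaction terms over 12 libraries each, and values beside other groups used 1 scaling over all 48 libraries. The named genes were key members of 27 gene lists, the 2 others of each list with the smallest p in each direction, the 5 genes of all with the smallest p and the 3 over 5 CPM with the largest change in each direction, and genes of the interaction tests. The comparison, the lists and the members were chosen with earlier results of these data known. A few list members are not reported here by name. Alternatives were library size scaling, DESeq2 1.42.0, limma 3.58.1 (voom), other filters and thresholds, a replicate block, 1 fit over the WT libraries and leaving out each library. The fits were tested on simulated counts.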

Additional observations from a re-analysis of the deposited data

Results flagged for a closer look

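Differences between groups in the same step are listed here, each from a test of the difference itself. Between genotypes 51 genes differed in their step from day 3 to day 6. The log2 differences of the named genes, WT minus DKO, were -3.06 for Pttg1, -1.5 for Gabarapl1, -1.23 for Mthfd2, 2.03 for Ggt5, 1.56 for Col1a2, 1.42 for Mmp2 and 1.32 for Cdc20. The calls of Col1a2, Mmp2, Cdc20 and Gabarapl1 were lost with the replicate block and without some single libraries. That of Mthfd2 was lost without WT day 6 replicate 3. Gm8730, with 770, 828 and 808 CPM at day 3 and 454, 518 and 479 CPM at day 6 in WT and 48.9, 48.3 and 49.6 CPM and 11.7, 10.6 and 8.99 CPM in DKO, differed by 1.5. Gm9625, with 178, 206 and 183 CPM and 103, 112 and 106 CPM in WT and 33.1, 31.7 and 29.1 CPM and 7.15, 7.16 and 7.0 CPM in DKO, differed by 1.31. Both are predicted genes whose levels already differed between genotypes at day 3 without overlap, and reads they may share with related genes make these values uncertain. Between preadipocytes and MEFs 5865 genes differed, among them Fkbp5 by 1.35, Tsc22d3 by 1.75, Rgs2 by 1.28, Nr4a1 by -0.79 and Pde4b by -1.6, preadipocyte minus MEF step. The Nr4a1 call was lost with library size scaling (edgeR adjusted p = 0.072). It was also lost without both MEF libraries that stood apart and without some single libraries. Causes of these differences were not tested.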

How the results depend on the processing

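The count of genes that changed from day 3 to day 6, 7060, was 7150 with library size scaling, 6964 with DESeq2, 7082 with limma-voom, 7451 without a filter, 7109 with a filter of 0.5 CPM, 7541 in the fit over 12 libraries and 6388 to 7205 with 1 library left out. At a log2 threshold of 1 the genes that rose numbered 2220, against 3367 that rose by the main call. With the replicate number as a block the count was 6831. The correlations of same-numbered deviations were -0.00481, 0.192 and -0.0608, and not every library correlated best with its own number. With 3 libraries a day, these values cannot settle whether same-numbered libraries came from the same mouse or culture. The genotype difference went from 51 genes to 577 with DESeq2, 8 with the block, where Col1a2, Mmp2, Cdc20 and Gabarapl1 lost their calls (adjusted p = 0.12, 0.12, 0.0889 and 0.0629), as Gatm and Dlk1 did in the WT step, and 6 to 87 with 1 library left out, and the MEF difference from 5865 to 5826, 6137 and 5900 with library size, DESeq2 and the block and to between 5048 and 6133. The MEF step of 0 genes became 278 with DESeq2 and 4176 without both libraries that stood apart, alternatives chosen after seeing the data. Of 2496 alternative values for the 192 named genes, 2410 kept direction and side of the threshold, 55 fell short of it, 8 newly passed it and 23, in 11 genes, changed sign. Without a filter on low counts the calls of Acta2, Anxa3, Cdkn1c, Cxcl12, Dlk1, Gatm, Mmp3, Mmp9, Pdgfra, Rgs2, Tagln and Zbtb16 were lost. The 11 that changed sign, none of which had passed, were Col4a1 (0.00 with DESeq2, 0.02 without a filter, 0.01 with the block, 0.02 in the fit over 12 libraries, -0.16 to 0.13 with 1 library left out), Ifit3 (-0.00 with limma-voom, -0.29 to 1.12), Gabarapl1 (-0.02 with library size), Per1 (-0.05 with library size) and, with 1 library left out, Adamts5 (-0.48 to 0.03), Hmgn2 (-0.21 to 0.11), Hmgn3 (-0.53 to 0.11), Hmgn5 (-0.37 to 0.06), Igf1 (-0.28 to 0.04), Jun (-0.13 to 0.1) and Mt2 (-0.11 to 0.05). The MEF difference of Crem ranged from -0.08 to 0.46. Of 510 counts over gene lists 502 stayed within 1.5 times and 8 did not. The cause of these shifts was not tested. With 3 libraries a day, intervals and floors cover counting and library spread only, and time, medium and cell mixture cannot be told apart.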
